A study of Rattus norvegicus with 14 samples.

Results

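The genes described here encode constitutive plasma carrier proteins: albumin (Alb), transthyretin (Ttr), transferrin (Tf), plasma retinol-binding protein (Rbp4), fetuin-A (Ahsg), vitamin D-binding protein (Gc) and the protease inhibitor murinoglobulin (Mug1). Every probe set whose platform annotation gave 1 of these 7 symbols and no other was taken. This gave 14 of the 8740 probe sets other than controls and covered 6 of the 7 genes, among 4736 genes with such a probe set. Alb had 4 probe sets, Rbp4 and Ahsg had 3 each, Ttr had 2, and Gc and Mug1 had 1 each. Tf was named only on 3 probe sets that also carry Srprb, so no value is given under its name. In all, 7 probe sets carried a member symbol beside other symbols. They are given by their IDs and are not counted among the 14.

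Liver RNA from the left lateral lobe of rats was hybridised to Affymetrix oligonucleotide arrays, 1 array per sample. The 14 arrays comprised 4 labelled magnesium-deficient (numbers 11 to 14), 5 labelled magnesium-supplemented (1 to 5) and 5 labelled standard (6 to 10). The labels give no strain, age, dose of magnesium or length of feeding. They do not state that arrays came from different animals, so each p-value reflects the spread between arrays alone, which may be technical. In whole liver, fewer hepatocytes and less RNA per hepatocyte cannot be told apart.

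Hepatocytes make most of the soluble proteins of blood plasma. Albumin binds fatty acids, bilirubin and many drugs and keeps up the osmotic pressure of plasma, and the related vitamin D-binding protein also takes up free actin. Transthyretin carries thyroxine and, by joining retinol-binding protein, keeps the retinol carrier from being lost through the kidney. Transferrin carries iron, and fetuin-A binds calcium and phosphate in small mineral particles. Murinoglobulins are rodent proteins of the alpha-2-macroglobulin family that trap proteases. Several of these proteins, albumin and transthyretin among them, are known to fall in plasma during inflammation.

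Promoters of Alb, Gc and Mug1 are shown because they belong to a pair of albumin family genes on chromosome 14 and to the member whose signal varied most. Each is the RefSeq window of 300 bases around the gene's start in the GRCr8 build, read 5′ to 3′ on the gene's strand. Capitals mark matches on either strand to GTTAAT (part of sites of HNF1, a hepatocyte transcription factor), TGTTTGC and TGTTTAC (forms of the forkhead factor site) and CCAAT.
Alb, chr14:17906930-17907229, minus strand: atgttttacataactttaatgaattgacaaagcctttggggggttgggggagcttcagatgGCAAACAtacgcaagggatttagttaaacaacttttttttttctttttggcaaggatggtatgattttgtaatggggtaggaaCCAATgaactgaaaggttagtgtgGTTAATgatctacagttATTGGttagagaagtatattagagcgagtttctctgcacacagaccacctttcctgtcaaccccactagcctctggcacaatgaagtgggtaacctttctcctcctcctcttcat
Gc, chr14:18916005-18916304, plus strand: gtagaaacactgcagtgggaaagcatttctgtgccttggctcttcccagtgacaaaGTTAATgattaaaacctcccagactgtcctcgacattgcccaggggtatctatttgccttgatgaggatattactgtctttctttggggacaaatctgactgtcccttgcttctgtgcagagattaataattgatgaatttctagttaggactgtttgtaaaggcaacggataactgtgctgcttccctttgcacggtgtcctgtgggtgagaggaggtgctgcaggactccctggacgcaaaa
Mug1, chr4:156748145-156748444, plus strand: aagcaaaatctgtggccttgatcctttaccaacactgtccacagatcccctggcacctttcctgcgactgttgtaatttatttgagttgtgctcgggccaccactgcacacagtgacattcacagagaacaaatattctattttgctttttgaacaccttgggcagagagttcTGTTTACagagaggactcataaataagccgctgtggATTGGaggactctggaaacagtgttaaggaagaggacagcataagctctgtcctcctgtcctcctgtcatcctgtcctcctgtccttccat
No matches overlap one another in these windows. Over 33469 RefSeq windows of this kind, GTTAAT was found in 7.45%, TGTTTGC in 4.88%, TGTTTAC in 3.78% and CCAAT in 37.5%. The motifs were kept from a longer set after their matches had been seen, so the matches are a description of the letters and show no binding. In the GRCr8 gene order Alb lies beside Afp, the gene of alpha-fetoprotein, on chromosome 14, which also holds Gc. Srprb is the neighbour of Tf on chromosome 8. Mug1 lies between Mug1l1 and Mug2 on chromosome 4, near-identical family members whose transcripts a probe set can share, so its signal may not come from Mug1 alone.

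The deposited values are signals on a linear scale, and each array carried about the same trimmed mean signal. Array medians nevertheless ran from 18.0 to 34.4 units, and an array's rank correlation with the rest, averaged, ran from 0.885 (supplemented 5) to 0.938. The 8 measured hepatocyte markers were bright on all arrays, with summed normalised signals of 22412 to 25810 units on deficient, 20730 to 25256 on supplemented and 22680 to 25143 on standard arrays. Summed signals of 6 Kupffer cell markers were 646 to 931 units on deficient, 786 to 1169 on supplemented and 653 to 900 on standard arrays. No marker gene passed the test in any comparison, but at most 0.117% of all tested probe sets did in any one of these. The part of other cell types in the results was not tested.

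Affymetrix arrays carry control probe sets at the 3′ and 5′ ends of the Gapdh transcript, and the ratio of their signals rises where RNA is broken or incompletely copied. The Gapdh 3′/5′ ratio was 3.79, 3.11, 6.41 and 2.18 on deficient arrays 11 to 14, 1.71, 2.01, 1.69, 2.18 and 0.923 on supplemented arrays 1 to 5, and 2.88, 2.56, 3.02, 2.06 and 6.29 on standard arrays 6 to 10. Deficient 13 and standard 10 were highest, and supplemented 1, 2, 3 and 5 lay below all other arrays. The log2 Gapdh ratio and the corresponding beta-actin ratio had Pearson's r of 0.824 over the 14 arrays and 0.971 without supplemented 5, whose Gapdh ratio was the lowest while its log2 beta-actin ratio was 1.29. These values are a description, with no test.

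The carrier genes were among the brightest of the array. Of the 14 probe sets, 11 had a mean deposited signal over 1000 units. The remaining 3 were Mug1 and 1 dim probe set each of Alb and Ahsg. After quantile normalisation, which gives every array the same distribution of signals, the SD of the log2 signal over all arrays was 0.40 for the median tested probe set and 0.27 for the median one in the top decile of signal.

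Albumin's brightest probe set, rc_AA866237_s_at, had deposited signals of 9267, 8134, 8507 and 9328 units on deficient arrays, 8588, 7428, 5999, 8609 and 13398 on supplemented arrays, and 13306, 8594, 8379, 9358 and 10592 on standard arrays. The groups overlapped, and supplemented 5 and standard 6 were the highest of all. The other bright Alb probe sets, rc_AA945321_at and rc_AA860062_g_at, ranged from 5535 to 11872 and from 5230 to 10193 units. Both were again at their highest on supplemented 5. The fourth, rc_AA860062_at, shares its source sequence with rc_AA860062_g_at but read only 14.3 to 45.6 units. Levels of different probe sets depend on their probes and are not compared as amounts of RNA.

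Gc, the vitamin D-binding protein gene, had deposited signals of 7341, 6166, 6466 and 7447 units on deficient arrays, 7602, 6519, 6054, 7449 and 11644 on supplemented arrays, and 11068, 7361, 6664, 7634 and 8234 on standard arrays. The diets overlapped, with the same pair of arrays on top. After normalisation, values were 7251, 6403, 6906 and 7178 units on deficient, 8063, 7954, 7678, 8196 and 8063 on supplemented, and 7798, 7870, 6647, 7798 and 7398 on standard arrays. On that scale every supplemented array lay above every deficient array, and standard arrays lay across the gap between them.

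Transthyretin was read by rc_AA945169_at and rc_AA945169_g_at, which share a source sequence. The first gave 6400, 5671, 5814 and 6909 units on deficient arrays, 6637, 5191, 5404, 5547 and 9335 on supplemented arrays, and 9305, 6184, 6519, 6329 and 6566 on standard arrays. Groups overlapped, and outside supplemented 5 and standard 6 no array was above 6909 units. The second ranged from 4801 to 7926 units. A further probe set, rc_AI102562_at, carries Ttr beside the metallothionein symbols Mt1f and Mt1. It ranged from 194 to 5715 units, a pattern unlike that of either Ttr probe set, and is not read as Ttr.

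Of the 3 probe sets of Rbp4, K03045cds_r_at and K03045cds_s_at varied together, with Pearson's r of 0.843 in normalised log2 signals over the 14 arrays. M10934_s_at did not follow them, with r of -0.061 to K03045cds_r_at and -0.281 to K03045cds_s_at. K03045cds_r_at gave 849, 1080, 839 and 2646 units on deficient arrays, 2524, 2031, 2084, 1380 and 626 on supplemented arrays, and 2010, 1754, 1338, 2531 and 821 on standard arrays. Diets overlapped widely, and supplemented 5 was the lowest array. K03045cds_s_at, from the same source sequence, ranged from 2630 units on supplemented 5 to 6113 on standard 9. M10934_s_at ranged from 2431 units on supplemented 4 to 4162 on supplemented 5, so the array that was lowest in both K03045 probe sets was highest in this one.

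Ahsg, whose protein fetuin-A keeps mineral from precipitating, gave 6446, 6684, 7023 and 7755 units at D10261_g_at on deficient arrays, 6659, 5498, 5506, 6033 and 8996 on supplemented arrays, and 9052, 6664, 6875, 7376 and 7547 on standard arrays. The diets overlapped, with standard 6 and supplemented 5 the highest. X63446_at ranged from 4945 to 7327 units. D10261_at, from the same source sequence as D10261_g_at, read 7.92 to 31.6 units, partly under the level of the filter on dim probe sets (14.3 units).

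The probe sets that carry Srprb and Tf were bright as well. D38380_at was the brightest of all 8740 on each of the 14 arrays, with 7500 to 16556 deposited units. Its normalised value was therefore the same on every array, so its test is void. D38380_g_at ranged from 6162 to 11390 units and U31866_g_at from 5399 to 9350.

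Mug1 varied most. M22359mRNA_s_at gave 223, 264, 67.1 and 1673 units on deficient arrays, 1684, 909, 985, 966 and 1214 on supplemented arrays, and 331, 743, 342, 659 and 47.9 on standard arrays, a 35.1-fold range. Every supplemented array lay above every standard array, while the deficient arrays spread from below nearly all standard arrays to 1673 units on deficient 14. Among probe sets shared with other family symbols, M22360_s_at and M22993cds_s_at also varied widely, by 10.7-fold and 14.6-fold. J03524_s_at, which carries Mug1 with Mug2, Cpamd8 and Mug1l1, varied by 1.83-fold, from 4489 to 8227 units.

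**Figure D1:**
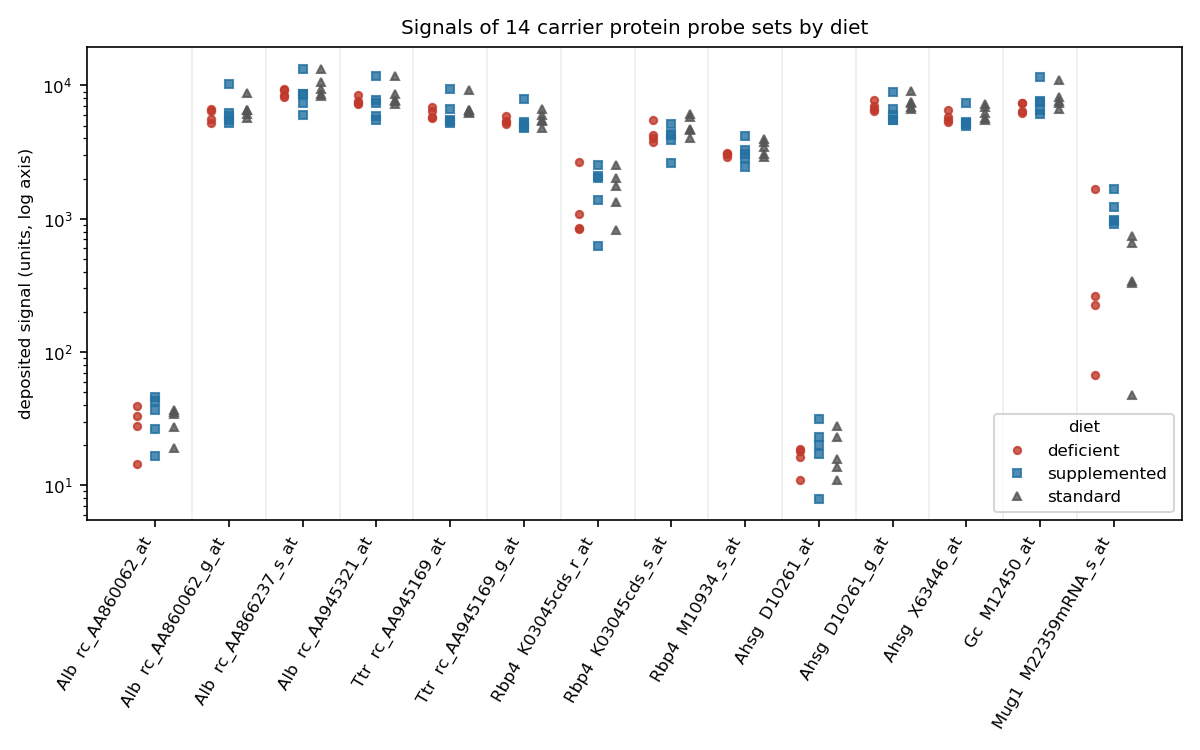
Deposited signals (units, log axis) of the 14 carrier protein probe sets on deficient, supplemented and standard arrays, 1 point per array. The 11 bright probe sets run from 626 units (Rbp4 K03045cds_r_at) to 13398 units (Alb rc_AA866237_s_at) and overlap between diets. Of the others, 2 are dim, and Mug1 runs from 47.9 to 1684 units.

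As deposited, most bright carrier probe sets stood high on a pair of arrays. Of the 11, 9 were above their own median on supplemented 5 and 11 on standard 6, while K03045cds_r_at and K03045cds_s_at of Rbp4 were at their lowest on supplemented 5. Over the 11, the median ratio to each probe set's own 14-array median was 1.47 on supplemented 5 and 1.34 on standard 6, against 1.17 and 1.20 over the 100 brightest other probe sets. It lay between 0.853 (supplemented 3) and 1.08 (deficient 14) on all other arrays. After normalisation the ratios on supplemented 5 and standard 6 were 1.04 and 1.01. Quantile normalisation sets a value by its rank within the array and these probe sets ranked near the top, so a joint change of the brightest transcripts cannot appear after it. Counts of higher and lower bright probe sets are therefore given on both scales.

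**Figure D2:**
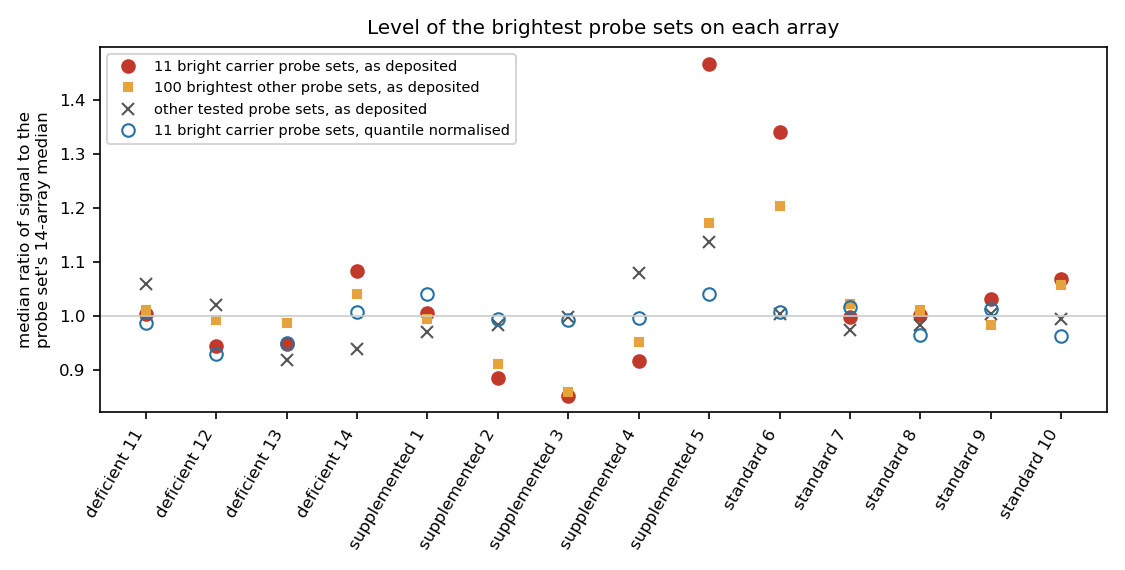
Median ratio of signal to each probe set's 14-array median, by array, for the 11 bright carrier probe sets as deposited and after normalisation, for the 100 brightest other probe sets and for the other tested probe sets as deposited. The carrier probe sets stand highest on supplemented 5 (1.47) and standard 6 (1.34), and lie near 1 on these arrays after normalisation.

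On the deficient diet compared with the standard diet, no carrier gene passed the test. Of the 14 probe sets 12 were lower and 2 higher, with differences of log2 signal from -0.37 to 0.05 and a median of -0.066, against a median of 0.00059 over the 5133 probe sets tested. Limma called 0 of the 14 at an adjusted p under 0.05, and 0% of all tested probe sets. Before adjustment, 0 of the 14 and 156 of the 5133 had a p under 0.05. Albumin's rc_AA866237_s_at averaged 13.12 ± 0.061 (log2 signal, SD, n = 4) on deficient and 13.16 ± 0.047 (SD, n = 5) on standard arrays, a difference of -0.032 with a 95% interval from -0.18 to 0.12. Over all arrays the SD of its log2 signal was 0.085 normalised and 0.30 as deposited, so the short interval is partly set by rank. For Ttr rc_AA945169_at the difference was -0.056 (95% interval -0.23 to 0.12), for Ahsg D10261_g_at 0.038 (-0.12 to 0.19) and for Gc -0.11 (-0.26 to 0.04). For Rbp4 the 3 probe sets were at -0.37, -0.11 and -0.12. The difference for Mug1 was -0.11 with an interval from -1.79 to 1.58, and it was 0.31 ± 0.43 (SE) with the Gapdh ratio as a covariate. As deposited, all 11 bright probe sets were lower on the deficient diet, by differences from -0.40 to -0.056. Their median was -0.16, against -0.013 over all tested probe sets. Without supplemented 5 and standard 6, 10 of the 11 were lower as deposited and their median was -0.064, again against -0.013. None of them was called in either setting.

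On the supplemented diet compared with the standard diet, again no carrier gene passed. The comparison shares its standard arrays with the one above. Differences of the 11 bright probe sets ran from -0.19 (Rbp4 K03045cds_s_at) to 0.13 (Ttr rc_AA945169_g_at), with 5 higher and 6 lower. Limma called 0 of the 14 members, and 0% of all tested probe sets. Before adjustment, 1 of the 14 (Mug1) and 456 of the 5133 had a p under 0.05. Mug1 averaged 10.14 ± 0.37 (log2 signal, SD, n = 5) on supplemented and 8.28 ± 1.56 (SD, n = 5) on standard arrays. Its difference of 1.87 ± 0.74 (SE), or 3.64-fold, missed the threshold (limma adjusted p = 0.509). With the Gapdh ratio as a covariate the Mug1 difference was 0.00034 ± 0.51 (SE), an estimate of low precision. Most supplemented arrays had a Gapdh ratio below that of every array of the other diets. Diet and ratio therefore overlap in comparisons with the supplemented diet, and the fit with this covariate cannot tell them apart. The part of the ratio in the Mug1 difference was not tested. The probe sets shared within the Mug family were at 1.51 ± 0.48 (M22993cds_s_at, limma adjusted p = 0.474), 0.88 ± 0.49 (M22360_s_at, limma adjusted p = 0.610) and 0.04 ± 0.08 (J03524_s_at, limma adjusted p = 0.906). As deposited, all 11 bright probe sets were lower on the supplemented diet, with a median of -0.14 against 0.059 over all tested probe sets, and none was called. Without supplemented 5 and standard 6, 10 of the 11 were lower as deposited. With each array centred on its median all 11 were lower, with a median of -0.31 against -0.11 over all tested probe sets. All 6 measured Kupffer cell markers were higher on the supplemented diet, with a median of 0.32 and 0 called. So were all 4 measured endothelial and all 3 measured blood markers, with medians of 0.17 and 0.23 and 0 called. Of 6 stellate cell and fibroblast markers 2 were higher and 4 lower, and of 8 hepatocyte markers 3 were higher and 5 lower. The part of these cell types in the values was not tested.

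On the deficient diet compared with the supplemented diet, no carrier gene passed the test either. Limma called 0 of the 14 members, against 0.0195% of all tested probe sets. Before adjustment, 2 of the 14 (Gc and Mug1, both lower) and 669 of the 5133 had a p under 0.05, so the members' share is near that of all probe sets. Gc averaged 12.76 ± 0.081 (log2 signal, SD, n = 4) on deficient and 12.96 ± 0.036 (SD, n = 5) on supplemented arrays, a difference of -0.21 ± 0.069 (SE, limma adjusted p = 0.281). With each array centred on its median, the Gc difference was 0.077, where the median over all tested probe sets was 0.17. For Gc (M12450_at) it was -0.16 as deposited, and -0.0091 as deposited without supplemented 5 and standard 6. All 6 measured Kupffer cell markers were lower on the deficient diet, with a median of -0.30 and 0 called. Of 4 endothelial markers 1 was higher and 3 lower, and of 3 blood markers 2 were higher and 1 lower, with 0 called. The part of these cell types in the values was not tested. The Mug1 difference was -1.97 ± 0.79 (SE, limma adjusted p = 0.335), and it was 0.31 ± 0.57 (SE) with the Gapdh ratio as a covariate. With each array centred on its median, 10 of the 11 bright probe sets were higher, against 5 of the 11 in the normalised values. Their median was then 0.22, where that over all tested probe sets was 0.17. As deposited 5 were higher and 6 lower (median -0.020, against -0.071 over all tested probe sets). As deposited without supplemented 5 and standard 6 it was 8 higher and 3 lower (median 0.11, against -0.036). The remaining 12 probe sets lay between -0.44 (Rbp4 K03045cds_r_at) and 0.09 (Ahsg D10261_g_at). The F-test for any difference among the diets called 0 of the 14, against 0.0195% of all tested probe sets, and Gc and Mug1 were the 2 members at an unadjusted p under 0.05 (limma adjusted p = 0.510 and 0.521).

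**Figure D3:**
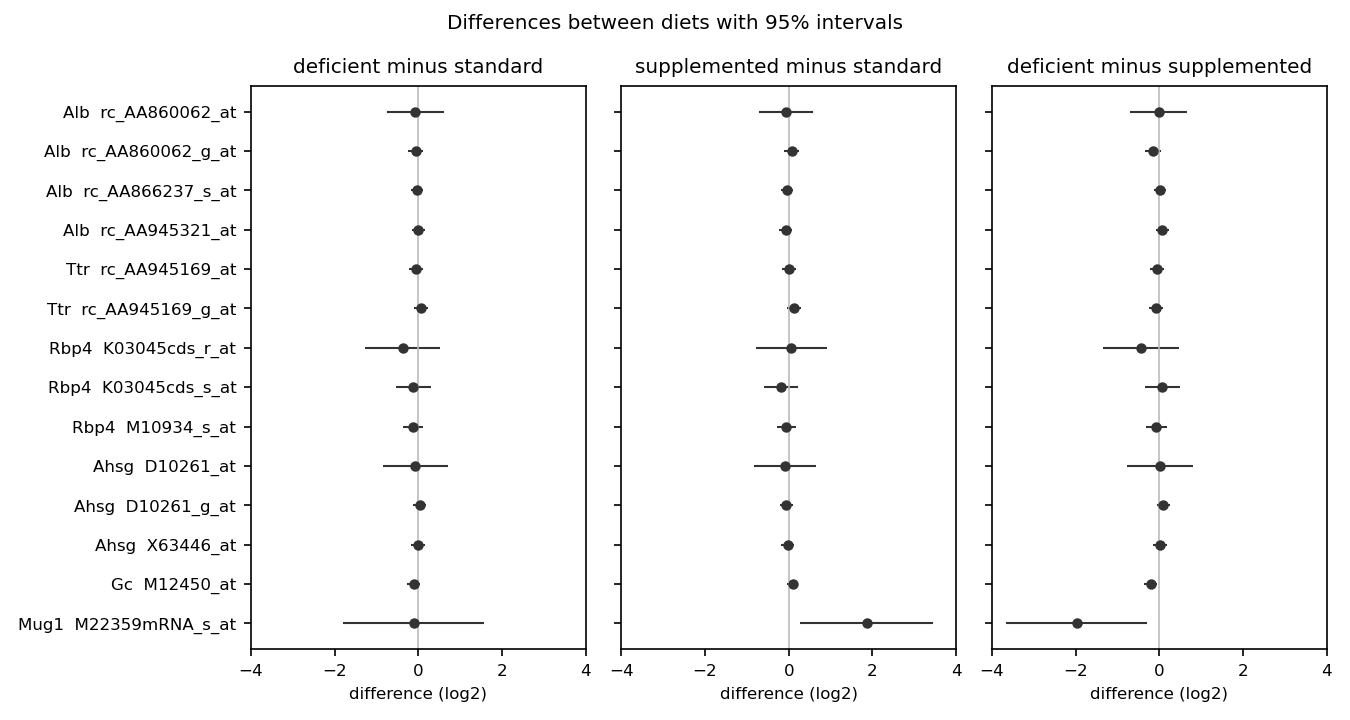
Differences of log2 signal between diets for the 14 carrier protein probe sets, with 95% intervals from the limma fit, for deficient minus standard, supplemented minus standard and deficient minus supplemented. Most points lie close to 0 with short intervals, in normalised values where ranks near the top limit any change of the bright probe sets. Mug1 is at 1.87 for supplemented minus standard and -1.97 for deficient minus supplemented with intervals several log2 units wide.

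In normalised values of all arrays, Mug1 was the only one of the 14 carrier probe sets with a called slope on the Gapdh 3′/5′ ratio. Its log2 signal fell by 2.01 ± 0.33 (SE) for each unit of the log2 ratio, in a model with a mean for each diet (limma adjusted p = 0.0386). Limma called 1 of the 14 members, against 0.117% of all tested probe sets, which is 6 of 5133, with lower calls at 0.0974%. Before adjustment, 2 of the 14 and 768 of the 5133 had a p under 0.05. The call was close to the threshold: without any 1 of supplemented 2 or 3, standard 6 to 10, or deficient 11, 13 or 14 the adjusted p lay between 0.0529 and 0.210, with slopes from -2.04 to -1.68. It also ended when each array was centred on its median (limma adjusted p = 0.130) and without both standard 10 and deficient 13, the arrays of the highest ratios (slope -1.32, limma adjusted p = 0.266). The call held in 4 of the 14 omissions of 1 array. The slope was steepest without supplemented 5 (-2.55), and the smallest limma adjusted p over these omissions was 0.000796.

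The other bright carriers had no called slope, and their direction depended on the scaling. In normalised values 2 of the 11 bright probe sets had a positive and 9 a negative slope, with a median of -0.036. As deposited all 11 slopes were negative, from -0.41 to -0.042, with a median of -0.17 against -0.041 over all tested probe sets. As deposited without supplemented 5 and standard 6, 5 were positive and 6 negative, with a median of -0.0091. In normalised values, where ranks near the top limit any change, albumin's bright probe sets were at 0.02, -0.036 and -0.13, Ttr at -0.10 and -0.035, Ahsg at -0.0049 and 0.05, and Gc at -0.023, each with an SE from 0.053 to 0.061. Within the Mug family the slope was -1.09 ± 0.30 (SE) at M22360_s_at and -1.05 ± 0.29 at M22993cds_s_at (limma adjusted p = 0.127 and 0.131), against -0.12 ± 0.059 at J03524_s_at (limma adjusted p = 0.373). U31866_g_at, which carries Srprb and Tf, was at -0.18 ± 0.061 (limma adjusted p = 0.203). The difference between these slopes was not tested.

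The slopes of Rbp4 depended on supplemented 5. K03045cds_r_at had a slope of -0.43 ± 0.32 (SE, limma adjusted p = 0.572) over the 14 arrays and of -1.0 ± 0.16 (limma adjusted p = 0.00985) without supplemented 5. K03045cds_s_at was at -0.059 ± 0.16 over all arrays and -0.34 ± 0.078 (limma adjusted p = 0.0494) without that array. With the beta-actin ratio in place of the Gapdh ratio, and all arrays kept, the slope of K03045cds_r_at was -0.97 ± 0.18 (limma adjusted p = 0.0195), and Mug1 was at -2.0 ± 0.26 (limma adjusted p = 0.00210). These were 2 of the 14 members, against 1.34% of all tested probe sets. Without standard 10 and deficient 13 the slope of K03045cds_r_at on the Gapdh ratio was 0.14 (limma adjusted p = 0.944). M10934_s_at was at -0.12 ± 0.084 on the Gapdh ratio and -0.0095 ± 0.085 on the beta-actin ratio.

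**Figure D4:**
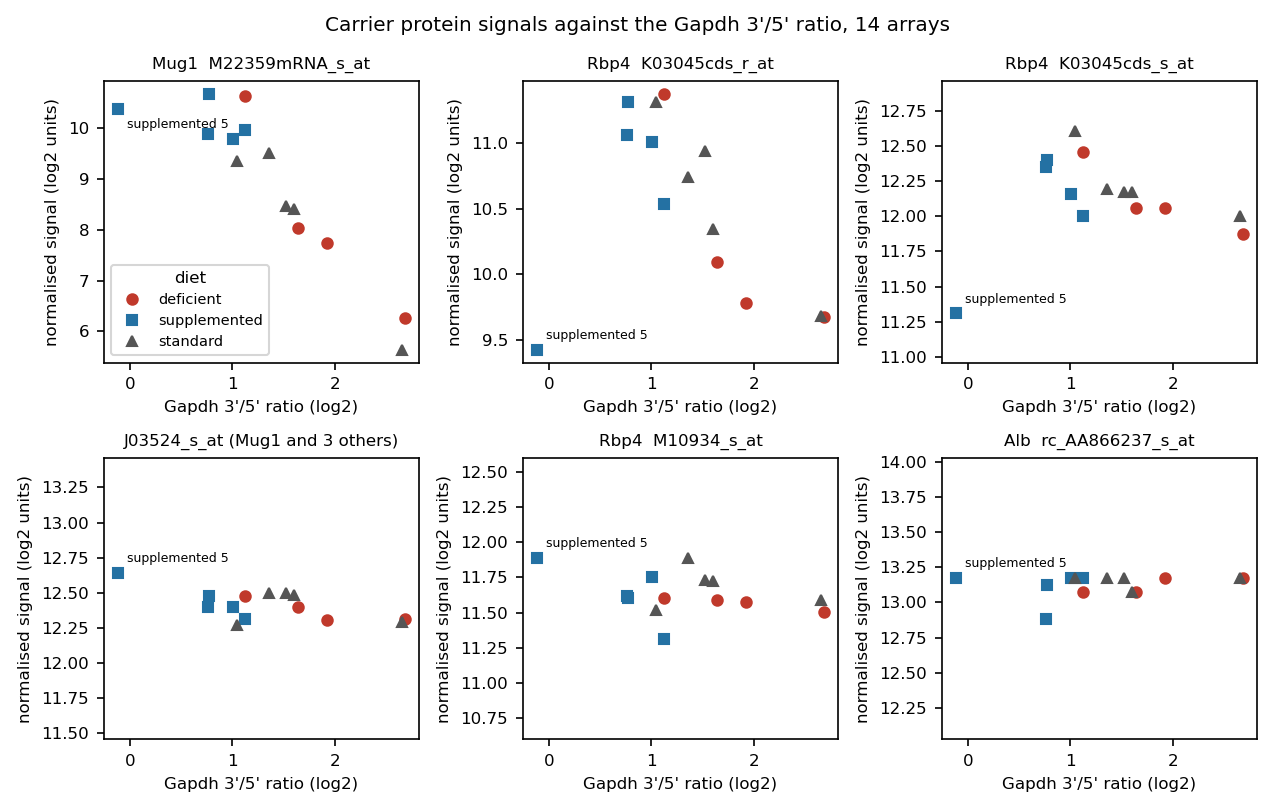
Normalised log2 signal against the log2 Gapdh 3′/5′ ratio, 1 point per array, for Mug1, the 3 Rbp4 probe sets, a probe set shared within the Mug family and the brightest Alb probe set. Mug1 falls along the axis, and the K03045 probe sets of Rbp4 are lowest on supplemented 5 at the left end of the axis. The remaining panels change little, in probe sets where ranks near the top limit any change.

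As a correlation of normalised log2 signals over the 14 arrays, Mug1 had Pearson's r = -0.911 with the log2 Gapdh ratio (permutation p = 1e-05, the smallest that the resamples can give, adjusted 0.00197 over the 5133 probe sets) and Spearman's rho = -0.873 (adjusted permutation p = 0.00848). Without deficient 13 and standard 10, the 2 arrays farthest from the median ratio, Pearson's r was -0.794, and without supplemented 5 it was -0.959. Computed on deviations from the mean of each diet, r was -0.861 (permutation p = 0.00107, adjusted 0.108). Pearson's test called 2 of the 14 members, both with a negative r, against 11.3% of all tested probe sets, with negative calls at 5.28%. So few calls do not set the members apart from these shares. The second called member was albumin's rc_AA860062_g_at, with r = -0.715 (adjusted permutation p = 0.0459) and rho = -0.509 (adjusted permutation p = 0.240). Its r was -0.637 within diets, -0.628 without the 2 farthest arrays and -0.570 without supplemented 5. The other bright Alb probe sets had r of 0.227 and 0.117. Spearman's test called 1 of the 14, against 9.49%, and the test within diets called 0 of the 14, against 0.175%. Of the probe sets with several symbols, Pearson's test called U31866_g_at (r = -0.803), M22993cds_s_at (r = -0.846) and M22360_s_at (r = -0.794). Their adjusted permutation p was 0.0067, 0.0054 and 0.0135. Spearman's test called them too, and the test within diets did not. D38380_g_at, J03524_s_at and rc_AI102562_at were not called in any of these tests.

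**Figure D5:**
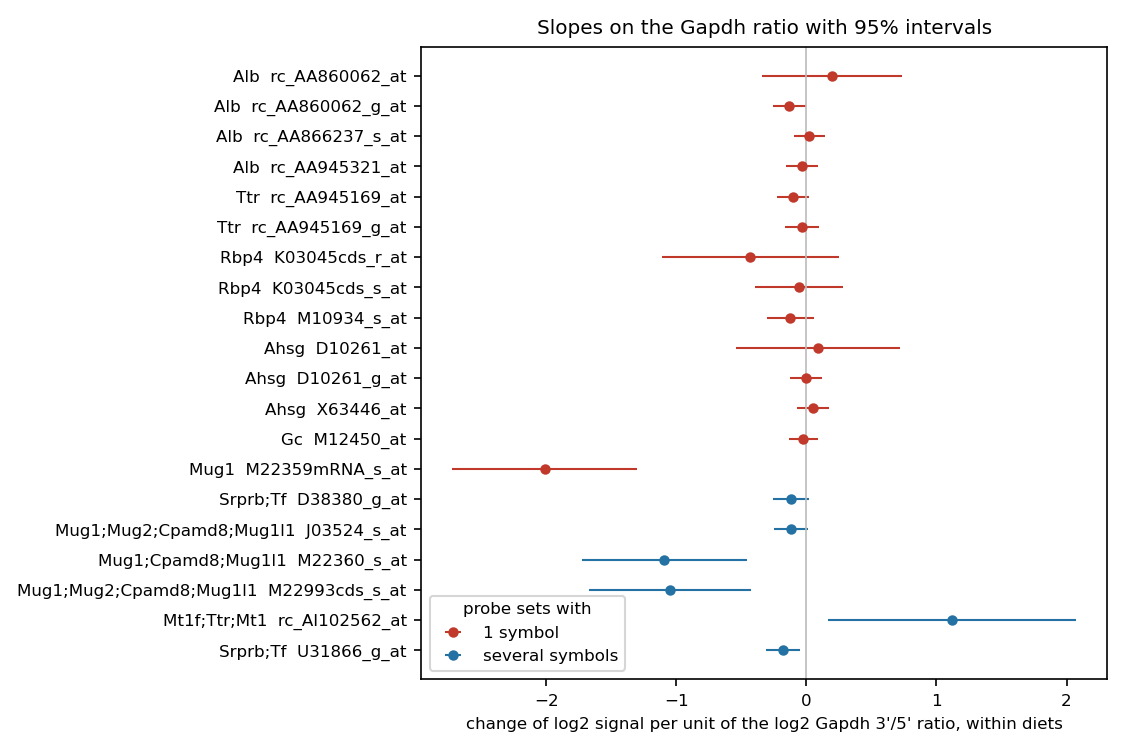
Change of normalised log2 signal per unit of the log2 Gapdh 3′/5′ ratio within diets, with 95% intervals, for the 14 carrier protein probe sets and for 6 of the probe sets that carry a member symbol beside others. Mug1 stands at -2.01 with an interval from -2.72 to -1.30, and most others lie near 0. Ranks near the top limit any change of the bright probe sets.

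Probe sets of 1 gene were then compared directly, through the log2 difference between the gene's brightest and dimmest tested probe set and its slope on the Gapdh ratio within diets. For Rbp4 the pair was K03045cds_s_at and K03045cds_r_at, so M10934_s_at did not enter this comparison. Limma called 0 of the 4 carrier genes with several probe sets, against 1.93% of the 879 genes tested in this way. In normalised values the slope of the difference was 0.37 ± 0.21 (SE) for Rbp4 (limma adjusted p = 0.294), -0.18 ± 0.24 for Alb, -0.066 ± 0.11 for Ttr and -0.094 ± 0.29 for Ahsg. The Rbp4 slope depended on the arrays used. It was 0.67 ± 0.16 (limma adjusted p = 0.0242) without supplemented 5 and 0.60 ± 0.15 (limma adjusted p = 0.0221) with array weights. It was 0.20 without standard 10 (limma adjusted p = 0.738), 0.20 without deficient 14 (limma adjusted p = 0.659) and 0.093 without both standard 10 and deficient 13 (limma adjusted p = 0.901). As deposited it was 0.32 ± 0.23 (limma adjusted p = 0.372). The dimmest probe sets of Alb and Ahsg read at most 45.6 and 31.6 deposited units. With the filter at the 60th percentile, which leaves these out, the slope was 0.15 ± 0.088 for Alb, the opposite direction, and -0.054 ± 0.11 for Ahsg. The Alb slope was also positive without deficient 13 (0.049) and with array weights (0.082), and the Ahsg slope without standard 9 (0.066), deficient 13 (0.051) or deficient 14 (0.013).

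The genes whose normalised log2 signals ran most like a carrier gene's over the 14 arrays were listed with their Pearson r as a description. For Mug1 they were Cops7a (r = 0.972), Plg, the gene of plasminogen (r = 0.971), and Tmem59 (r = 0.955). Cops7a and Plg had slopes on the Gapdh ratio of -0.97 ± 0.16 and -1.16 ± 0.19 (SE, limma adjusted p = 0.0386 each). This slope was called for 0.117% of all tested probe sets. These genes were picked for their likeness to Mug1 on the same arrays, so a like slope follows from the choice and adds no support. For Rbp4, at K03045cds_s_at, they were Agxt (r = 0.929), Gna12 (r = 0.917) and Eci1 (r = 0.897). For Gc they were Met (r = 0.873), Insr (r = 0.838) and Morf4l2 (r = 0.820), for Ttr Gpr182 (r = 0.860), Col3a1 (r = 0.852) and Ntan1 (r = 0.849), and for Ahsg Adcy6 (r = 0.790), Chmp1a (r = 0.781) and Auh (r = 0.759). For Alb they were Ptafr (r = 0.909), C4h2orf68 (r = 0.887) and Dpy19l1 (r = 0.807), where albumin's values take only 4 distinct levels, set by its rank.

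Genes that work beside the carriers gave 0 calls in any diet comparison or for the slope on the Gapdh ratio, in each of 6 lists. Over all tested probe sets the share called was at most 0.0195% between diets and 0.117% for the slope. At such shares 0 calls in short lists do not set these genes apart. Of 18 other measured carrier and binding protein genes, 8 were higher and 10 lower on the deficient than on the standard diet, and 11 had a positive slope. The gene of smallest p for the slope was Igfbp1, whose protein binds insulin-like growth factors, at 0.88 ± 0.24 (SE, limma adjusted p = 0.127). Of 18 genes that rise in inflammation, 13 were higher and 5 lower on the deficient than on the standard diet, with a median of 0.06. A2m, the gene of alpha-2-macroglobulin, was at 0.61 ± 0.27 between the deficient and the supplemented diet (SE, limma adjusted p = 0.373).

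Of 9 measured protease inhibitor genes, 5 were higher and 4 lower on the deficient than on the standard diet, and Serpina3m was at -1.39 ± 0.58 (SE, limma adjusted p = 0.999). For 14 partners and receptors of the carriers the counts were 7 and 7. Asgr1 and Asgr2, the subunits of the receptor that takes up aged plasma glycoproteins, had slopes on the Gapdh ratio of 0.41 ± 0.15 and -0.35 ± 0.11 (SE, limma adjusted p = 0.221 and 0.171), in opposite directions. Of 18 genes of the secretory pathway 10 were higher and 8 lower, and Sec61a1, a subunit of the channel into the endoplasmic reticulum, had a slope of -0.80 ± 0.20 (SE, limma adjusted p = 0.104). Of 18 liver transcription factor genes 7 were higher and 11 lower, with Cebpa at -0.68 ± 0.32 between the deficient and the supplemented diet (SE, limma adjusted p = 0.385).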

How the data were processed

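The deposited table holds 1 linear intensity value per probe set for each of 14 arrays. The software behind them is not given in the sources used here, and every deposited array has about the same trimmed mean. Their number limits the precision. Because array medians differed by up to 1.91 times, log2 signals of the 8740 probe sets other than the 59 controls were quantile normalised, floored at the pooled 20th percentile (3.93 units) and kept where their mean exceeded the pooled 40th percentile (14.3 units), which left 5133. Symbols came from the platform annotation. Limma 3.58.1 in R 4.3.3 (lmFit, eBayes with a trend) fitted all arrays in 1 model, two-sided, with Benjamini-Hochberg adjustment over all tested probe sets. Correlations used 100000 permutations. Procedures were tested on simulated data. Members and lists were chosen with earlier results of these data known. For each carrier gene's brightest probe set the 3 genes of highest r are named, and of each list genes of smallest p. Alternatives covered scaling, floor, filter, spread model, array weights, covariates and omitted arrays. The settings without standard 10 and deficient 13, and as deposited without supplemented 5 and standard 6, and, for the split between probe sets, the other floors, the 60th percentile filter, the fit with no trend and array weights, were chosen after seeing the data.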

Additional observations from a re-analysis of the deposited data

Results flagged for a closer look

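Within a diet, 1 array stood apart from the rest in 8 of the 63 groups formed by 21 probe sets and 3 diets. D38380_at has the same normalised value on every array, so its groups could not be flagged. The cut gives about 1 in 20 groups for independent normal values. The probe sets share arrays and some values are set by rank, so that rate is only a rough guide. Values are normalised log2 signals. Mug1 was at 5.64 on standard 10, the standard array of highest Gapdh ratio, against 8.42 on the nearest standard array. M22360_s_at, shared within the Mug family, was at 9.44 on deficient 14, the deficient array of lowest Gapdh ratio, against 7.44 on the nearest.

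The other flags concerned small gaps or a dim probe set. Albumin's rc_AA866237_s_at was low on supplemented 3 (12.9) and on standard 8 (13.1), where its values are set by rank, and rc_AA945321_at was high on standard 6 (13.1). Ahsg D10261_at was low on supplemented 3 (2.99), a signal of 7.95 units. Ahsg D10261_g_at was high on supplemented 1 (12.8), and D38380_g_at, which carries Srprb and Tf, was low on the same array (12.8).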

How the results depend on the processing

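No member was called between diets, or among the 3 diets, in any of the settings run. The count of members called for the slope on the Gapdh ratio, 1 in the main setting, was 0 with arrays centred on their median, with no filter, with no trend of the spread and without standard 10 and deficient 13, and 2 with array weights, with the beta-actin ratio, and as deposited without supplemented 5 and standard 6. It ran from 0 to 3 with 1 array left out, 3 without supplemented 5. Over all probe sets this slope gave 6 calls, but 0 with arrays centred on their median or with no trend, 191 with array weights, 69 with the beta-actin ratio and 619 with no diet term. The split between probe sets called 0 member genes, but 1 (Rbp4) with array weights and as deposited without supplemented 5 and standard 6, and 0 to 1 with 1 array left out. Over all genes it gave 17 calls, from 0 (without standard 10) to 150 (array weights). For Alb and Ahsg the direction of the split turned in some settings and no call was made. The correlation called 2 members, and 1 on deposited values.

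Directions changed for small differences. For deficient minus standard, Rbp4 K03045cds_s_at was at 0.00026 with the beta-actin covariate. Ahsg D10261_g_at was at -0.10 as deposited, -0.029 after median centring and -0.030 as deposited without supplemented 5 and standard 6. Mug1 was at 0.31 and 0.56 with the Gapdh and beta-actin covariates, and from -0.93 to 0.53 with 1 array left out. For supplemented minus standard, Gc in these 3 scalings was at -0.078, -0.25 and -0.12. For deficient minus supplemented, Gc was at 0.077 after median centring and Mug1 at 0.31 with the Gapdh covariate. The slope of Rbp4 K03045cds_r_at was 0.14 without standard 10 and deficient 13, and that of K03045cds_s_at was 0.071 after median centring, 0.024 with no diet term, 0.23 without standard 10 and deficient 13, and from -0.34 to 0.037 with 1 array left out. The causes were not tested. Centring on medians moved the median difference of all tested probe sets to -0.11 for supplemented minus standard and 0.17 for deficient minus supplemented, and the median slope to 0.12. No paired analysis was possible because array numbers run on from diet to diet and none is shared. Without detection calls, whether dim signals lie above background is unknown.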
